A study of Gossypium hirsutum with 6 samples.

Results

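Upland cotton (*Gossypium hirsutum*) is a tetraploid with an A and a D set of chromosomes, its subgenomes, and most genes exist as an A copy and a D copy, called homeologs. Here 5 A/D pairs labelled as homeologs, 10 genes of the 100562 listed, were described because the copies of each pair differed in opposite directions between ovules cultured with putrescine (Put) and ovules cultured with water (CK). The pairs encode a glycine-rich cell wall structural protein, the BAHD acyltransferase DCR, sugar carrier protein C, trichome birefringence-like 39 (TBL39) and patatin-like protein 2. They were picked from the Put to CK contrast itself, so their fold changes are given as a description and carry no test.

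The RNA came from wild type ovules, taken by the study's methods from bolls of the cultivar ZM24 at 0 DPA (days post anthesis) and cultured for 2 d in the dark. There were 3 Put samples, with 10 μmol/L Put in the medium, and 3 CK samples, with water in its place. By the study's methods, collected ovules were split at random into replicates, so the p-values below measure the spread between these samples only. Total counts were 16974557 to 18454734 per sample in Put and 19131678 to 19463059 in CK, where 3 counts equal 0.153 to 0.179 CPM (counts scaled to a fixed library size). Of the listed genes 51764 passed the filter on low counts and were tested with edgeR's quasi-likelihood test, with Benjamini-Hochberg adjustment and an adjusted p threshold of 0.05, and all 10 members were among them.

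Fibers are single cells that grow out of the ovule epidermis, and ovule culture keeps the ovule and its young fibers together. Glycine-rich structural proteins are secreted into the cell wall. DCR, known from *Arabidopsis*, belongs to the BAHD acyltransferases and is needed for cutin, the polyester of the cuticle. Sugar carriers of the STP family move hexoses into the cell together with protons, and proteins of the trichome birefringence-like family are known to acetylate wall polysaccharides. Patatin-like proteins are lipid acyl hydrolases that release fatty acids from membrane lipids.

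Marker genes of the cell types that the cultures could hold were summed in each sample. Genes of the ovule regulator AGL11 were well counted, with 1439 to 2579 counts per gene and sample, so ovule transcripts were present in every sample. The AGL11 genes LOC107957499, LOC107959522 and LOC107904906 rose slightly, by 0.25, 0.13 and 0.10 on the log2 scale, unlike most of their list, given below. LOC107914052 was not called. The summed level of 23 fiber marker genes was 9752 to 9877 CPM in Put, against 2191 to 2241 CPM in CK. Of the 21 that were tested 9 rose and 5 fell, and the sum was carried by the E6 genes LOC107905808 and LOC107913945 and the expansin-A4 genes LOC107914543 and LOC107896748. The ovule and integument list summed to 786 to 804 CPM in Put and 857 to 876 CPM in CK, with 4 of 33 tested genes higher and 21 lower, and the YABBY 4-like genes on A01 and D01 had no counts in any sample. Green tissue genes summed to 196 to 203 CPM in Put and 238 to 241 CPM in CK, with 1 of 37 tested higher and 13 lower. Pollen genes summed to 42.2 to 46.4 CPM in Put and 42.6 to 44.1 CPM in CK. Embryo and endosperm genes summed to 206 to 216 CPM in Put and 198 to 206 CPM in CK. In these bulk samples, fewer cells of a type and less RNA per cell cannot be told apart, and the part of these shifts in the pairs' values was not tested.

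All 10 members passed adjusted p 0.05 in the contrast that chose them, 5 higher and 5 lower, where 36.6% of all tested genes were called, 18.4% as higher and 18.2% as lower. The Put and CK samples of a member overlapped in CPM for none of the 10, whereas 45.4% of all tested genes had no overlap. The copy that was higher in Put lay on the D subgenome in the glycine-rich, sugar carrier and TBL39 pairs, 3 in all, and on the A subgenome in the 2 others, DCR and patatin-like 2. The plot of FPKM by sample shows the opposite slopes of the copies in each pair.

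**Figure D1:**
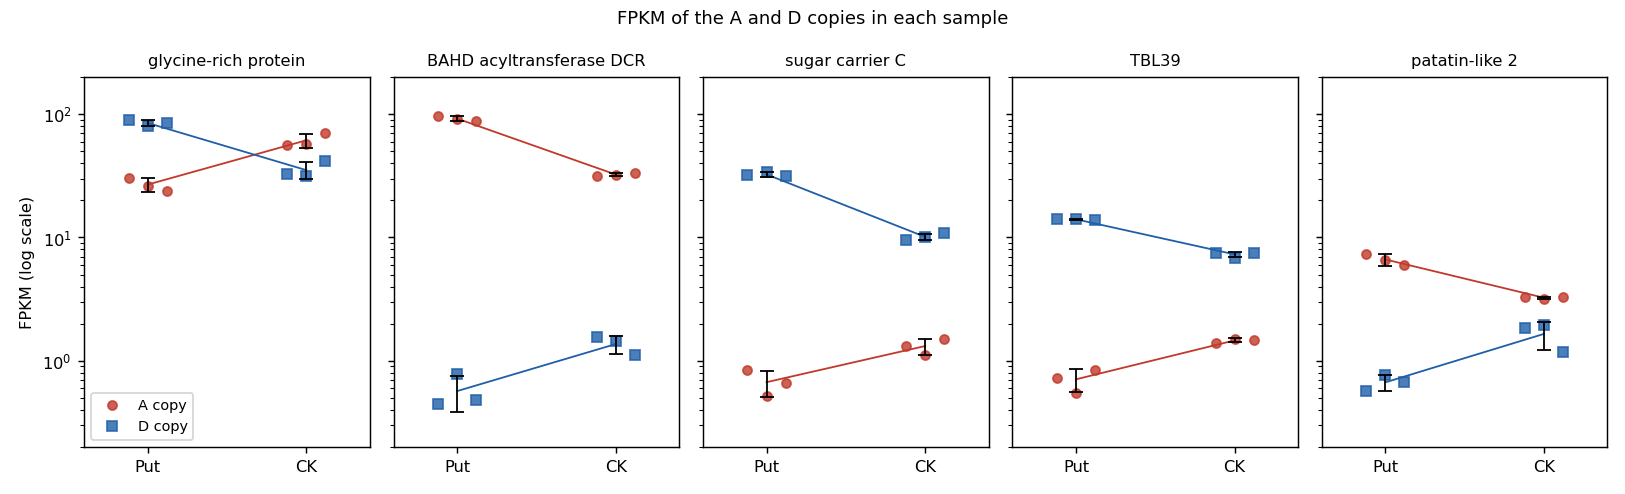
FPKM (fragments scaled by gene length and by a size factor of each library, log axis) of the A copy (red circles) and the D copy (blue squares) of each pair in the 3 Put samples, left, and the 3 CK samples, right, with bars for the mean ± SD. The lines run in opposite directions in all 5 panels and cross in the glycine-rich panel only, and 4 of the 5 copies that were lower in Put lie at or under 1.95 FPKM in every sample.

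In the glycine-rich pair both copies were abundant in both conditions. The D copy LOC107936232 (D02, 5942074 to 5959352, plus strand, build Gossypium_hirsutum_v2.1, as all positions here) had 89.5, 80.2 and 85.2 FPKM in Put, against 32.7, 31.3 and 41.5 FPKM in CK. The A copy LOC121215117 (A02, 5539117 to 5540032, plus strand) had 30.5, 26.4 and 23.7 FPKM in Put, against 56.0, 57.5 and 71.0 FPKM in CK. Every Put sample thus lay above every CK sample for the D copy and below for the A copy. The log2 fold change of Put over CK was 1.27 (SE 0.06) for the D copy and −1.19 (SE 0.07) for the A copy. The more abundant copy of this pair was the D copy in Put, 3.16 times the A copy by mean FPKM, and the A copy in CK, 1.75 times the D copy. The sum of both copies overlapped between conditions, with 120, 107 and 109 FPKM in Put and 88.7, 88.9 and 112 FPKM in CK.

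In the DCR pair the A copy LOC107904606 (A11, 1116350 to 1118224, minus strand) held nearly all of the expression. It had 96.4, 91.8 and 88.5 FPKM in Put, against 31.7, 32.2 and 33.4 FPKM in CK, a log2 fold change of 1.51 (SE 0.04). The D copy LOC121223601 (D11, 998751 to 1000576, minus strand), which the annotation names DCR-like, had 15, 24 and 15 counts in Put, against 55, 52 and 39 counts in CK. These counts correspond to 0.448, 0.776 and 0.478 FPKM in Put and 1.55, 1.44 and 1.10 FPKM in CK, with a log2 fold change of −1.27 (SE 0.28). The 2 copies differed 162-fold in Put and 23.7-fold in CK by mean FPKM, so the D copy contributed little to the sum, which was 92.8 ± 3.95 FPKM in Put and 33.8 ± 0.638 FPKM in CK (SD, n = 3 each). A pseudogene, LOC121209832, shares 31 bases with the A copy by position and had no counts in any sample.

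Sugar carrier protein C had the reverse arrangement, with an abundant D copy and a faint A copy. The D copy LOC107937779 (D10, 1955924 to 1960099, plus strand) had 1126, 1107 and 1028 counts in Put, against 354, 379 and 399 counts in CK, a log2 fold change of 1.69 (SE 0.06), the largest among the 10 members. The A copy LOC107924896 (A10, 1993168 to 1997402, plus strand) had 30, 17 and 22 counts in Put, against 50, 43 and 57 counts in CK, a log2 fold change of −0.96 (SE 0.26). Its FPKM was 0.515 to 0.839 in Put and 1.12 to 1.51 in CK, without overlap. The D copy exceeded the A copy in all 6 samples, and by mean FPKM 48.5-fold in Put and 7.68-fold in CK.

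TBL39 lay on the same chromosomes, far from the sugar carrier genes on each. The D copy LOC107915370 (D10, 18283999 to 18286630, minus strand) had 386, 361 and 361 counts in Put, against 220, 204 and 217 counts in CK, a log2 fold change of 0.95 (SE 0.09). The A copy LOC107896859 (A10, 88839995 to 88842716, plus strand) had 20, 14 and 22 counts in Put, against 41, 45 and 43 counts in CK, a log2 fold change of −1.04 (SE 0.28). Both copies thus differed by about the same factor in opposite directions, with the D copy the higher one in each of the 6 samples.

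Patatin-like protein 2 was the pair with the lowest counts overall. The A copy LOC107958101 (A05, 20234312 to 20236536, minus strand) had 210, 173 and 158 counts in Put, against 99, 97 and 98 counts in CK, a log2 fold change of 1.04 (SE 0.13). The D copy LOC107961511 (D05, 18162750 to 18165070, minus strand) had 17, 21 and 19 counts in Put, against 58, 63 and 37 counts in CK, a log2 fold change of −1.30 (SE 0.27). CK replicate 3, with 37 counts, lay nearest to the Put samples. The sum of both copies was higher in every Put sample than in every CK sample, as it was for DCR, sugar carrier C and TBL39, and its mean FPKM ratio of Put over CK was 1.49 here, 2.75 for DCR, 2.90 for sugar carrier C and 1.69 for TBL39.

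Of the 5 copies that were lower in Put, 4 never exceeded 63 counts in a sample, and the glycine-rich A copy, with 373 to 1257 counts, was the exception. Copies whose sequences are close can exchange reads in mapping. The sources used here name the aligner but not how a read that fitted both copies was counted, and the part of such reads in the low values was not tested.

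The share of the A copy in the FPKM of its pair puts both copies on one scale. In the glycine-rich pair this share was 24.0 ± 1.95% in Put and 63.6 ± 0.939% in CK. It was 99.4 ± 0.199% in Put and 95.9 ± 0.763% in CK for DCR. The pairs led by the D copy had 2.03 ± 0.532% in Put and 11.5 ± 1.28% in CK for sugar carrier C, and 4.79 ± 1.01% in Put and 16.7 ± 1.20% in CK for TBL39. The patatin-like pair had 90.8 ± 1.82% in Put and 66.6 ± 6.21% in CK (SD, n = 3 for all of these). As a share of counts in single samples, the exact 95% binomial interval, which covers counting error only, was at most 15.7 percentage points wide in the patatin-like pair and at most 9.93 points wide in the 4 others. Over 11413 A/D pairs, matched by description as explained further on, the median share was 49.6% in both conditions, and 10% of the pairs lay below 32.0% and 10% above 67.1% in CK. The shift of the share between conditions had a median of 2.40 points over those pairs and a 99th percentile of 19.2 points, which the glycine-rich pair and the patatin-like pair exceeded. This shift follows from the opposite fold changes for which the members were picked, so its rank says nothing more about them.

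**Figure D2:**
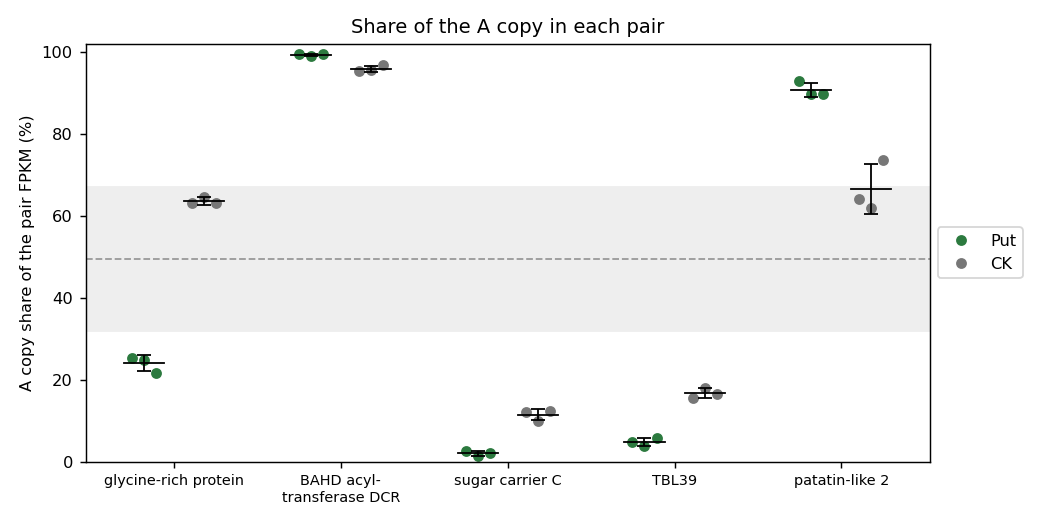
Share of the A copy in the FPKM of its pair (%) in the 3 Put samples (green, left) and the 3 CK samples (grey, right) of each pair, with the mean ± SD. The dashed line is the median over 11413 A/D pairs in CK, 49.6%, and the grey band spans their 10th to 90th percentile, 32.0 to 67.1%: the DCR, sugar carrier C and TBL39 pairs lie outside the band in both conditions, the glycine-rich pair lies inside it in CK and below it in Put, and the patatin-like pair lies above it in Put and in CK replicate 3, at 73.6%, with the 2 other CK samples inside.

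Unequal copies were a feature of these pairs already in CK. The ratio of the more abundant copy to the other in CK stood at percentile 99.7 of all pairs for DCR, 97.9 for sugar carrier C and 95.6 for TBL39, but at 77.5 for patatin-like 2 and 71.7 for the glycine-rich pair, where the median over all pairs was 1.36-fold. The copy that was higher in Put was the more abundant one in CK in 4 of the 5 pairs, and in Put in all 5. Among the 113 other pairs with opposite calls it was the more abundant one in CK in 51 (45.1%) and in Put in 78 (69.0%), and the median fold between copies in CK was 1.79. These ratios use the same samples as the choice of pairs and were not tested.

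How rare the pattern was depends on how pairs are formed. Genes of one description that were the only ones of it on each of 2 homoeologous chromosomes gave 14843 A/D pairs, of which 11413 had both copies tested. Both copies were called in 3031 of these, in the same direction in 2916 and in opposite directions in 115, which is 1.01% of the pairs tested. The copy higher in Put was the A copy in 52 and the D copy in 63 of the 115, and 6 of them had fold changes of 1 or more on the log2 scale in both copies. When pairs were formed by gene order instead, from shared descriptions among the 10 coding genes on each side, 158 of 13595 pairs had opposite calls, or 1.16%.

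The difference between the copies' log2 fold changes was 2.78 for DCR, 2.65 for sugar carrier C, 2.46 for the glycine-rich pair, 2.34 for patatin-like 2 and 1.99 for TBL39, in absolute value, where the median over all pairs was 0.15 and the 99th percentile 1.39. As the members were picked for this difference, its rank says nothing more about them. The 3 other pairs with the largest differences, where only pairs averaging 1 CPM or more in each copy were ranked, were an extensin-2-like pair, a beta-amyrin synthase pair and a disease resistance response protein 206-like pair. In the extensin-2-like pair, wall glycoproteins, the A09 copy LOC121206298 had 21.6 ± 1.04 CPM in Put and 13.6 ± 0.747 CPM in CK, and the D09 copy LOC107890534 had 1.17 ± 0.0755 CPM in Put and 9.91 ± 0.619 CPM in CK. The pair nearest to TBL39 in both fold changes was BIG GRAIN 1-like E (LOC107887398 on A03, log2 fold change −1.03, and LOC107936302 on D02, 0.94), which was also nearest to the glycine-rich pair. The receptor kinase FERONIA, known in *Arabidopsis* for its role in cell growth (LOC107927337 on A12, 1.12, and LOC107945261 on D12, −1.25), was nearest to both patatin-like 2 and DCR, and the disease resistance response protein 206-like pair (LOC107952533 on A02, −0.71, and LOC107950940 on D03, 1.81) was nearest to sugar carrier C. A pair of fiber E6-like genes on A10 and D10, named here after its values were seen, was among the 115 as well, with LOC107941059 on D10 at 565 ± 5.53 CPM in Put and 167 ± 5.90 CPM in CK, and LOC107925267 on A10 at 115 ± 2.63 CPM in Put and 164 ± 3.85 CPM in CK.

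**Figure D3:**
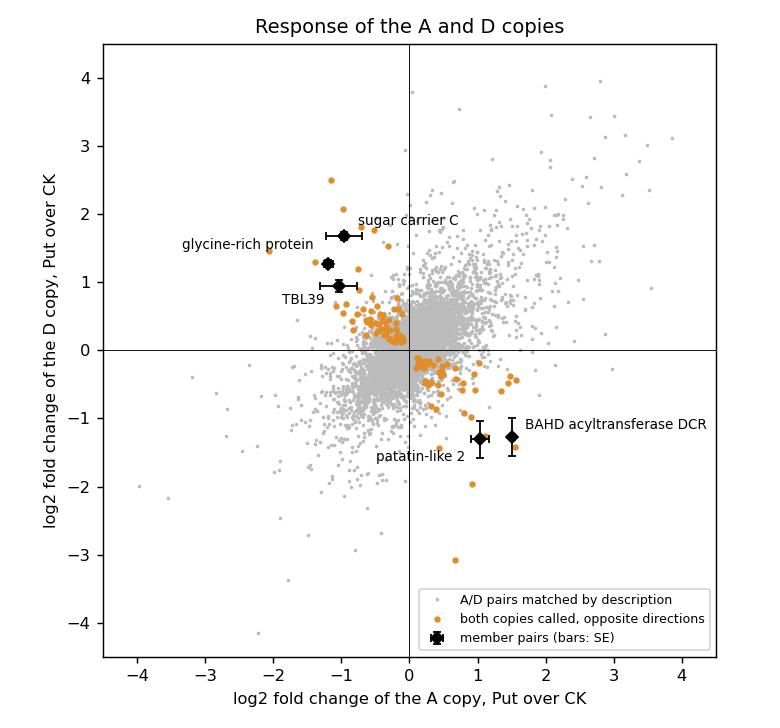
Log2 fold change of Put over CK of the A copy against that of the D copy for 11413 A/D pairs (grey), those with opposite calls (orange) and the 5 member pairs (black, bars for the SE), and 1 pair lies beyond the axes. The grey cloud runs along the diagonal, whereas the member pairs lie in the upper left quadrant (glycine-rich, sugar carrier C, TBL39) and the lower right one (DCR, patatin-like 2).

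Gene order gave a check of the pairing that did not use the expression values. It returned 4 of the 5 pairs as reciprocal best partners, with 14 shared neighbour descriptions for the glycine-rich pair, 13 for sugar carrier C, 11 for DCR and 10 for TBL39. Only genes of the same description, apart from a -like ending, competed as partners. DCR and sugar carrier C had no other candidate, and the other candidates in the glycine-rich and TBL39 pairs shared 0 neighbour descriptions. The rule thus could not choose between differently named neighbours. The rule by description returned 2 of the 5, DCR and sugar carrier C. The patatin-like pair was returned by neither, because patatin-like 2 genes stand in a row on both A05 and D05, and LOC107958101 shared 10 neighbour descriptions with LOC107961511 and equally with LOC121217797 and LOC121217798. In those rows the 2 members held nearly all counts: the 3 other patatin-like 2 genes on A05 had at most 4 counts in a sample and the 4 others on D05 at most 3, which is at or near the floor of 3 counts.

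The glycine-rich pair matched its label only in part. On A02 LOC121215117 was the gene next to NPGR2-like (LOC121215133), which encodes a calmodulin-binding protein, with 7092 bases between them and no gene in between. On D02 the gene next to NPGR2 (LOC107942209) was not the member LOC107936232, which lay 51106 bases away with 2 genes in between, but a second glycine-rich cell wall structural protein gene, LOC107942203, at a distance of 18176 bases. LOC107942203 and LOC121215117 had an exon length equal to their span, 979 and 916 bases, whereas LOC107936232 had 1200 exon bases over a span of 17279. The annotation calls LOC107942203 glycine-rich cell wall structural protein 1, and the difference in name kept it out of both pair rules.

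LOC107942203 was lower in Put, like the A02 gene. It had 24, 30 and 17 counts in Put, against 133, 140 and 173 counts in CK, so the conditions were far apart, and its log2 fold change was −2.49 (SE 0.19, edgeR quasi-likelihood test, adjusted p = 7.33e-16). With LOC107942203 as the partner of LOC121215117, both copies of the pair were lower in Put, and the share of the A copy was 95.1 ± 1.32% in Put and 88.8 ± 0.154% in CK (SD, n = 3 each). NPGR2 fell on both chromosomes as well, by 0.67 (SE 0.07, adjusted p = 6.02e-11) on A02 and by 0.53 (SE 0.06, adjusted p = 1.64e-10) on D02 on the log2 scale. Which of the 2 D02 genes is the homeolog of LOC121215117 was not tested, since no sequence was compared here. The map of log2 fold changes around NPGR2 shows the 3 glycine-rich cell wall structural protein genes. Glycine-rich protein DOT1-like on A02 (LOC121211002), drawn there as well, was not called (−0.10, SE 0.15, edgeR quasi-likelihood test, adjusted p = 0.64).

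**Figure D4:**
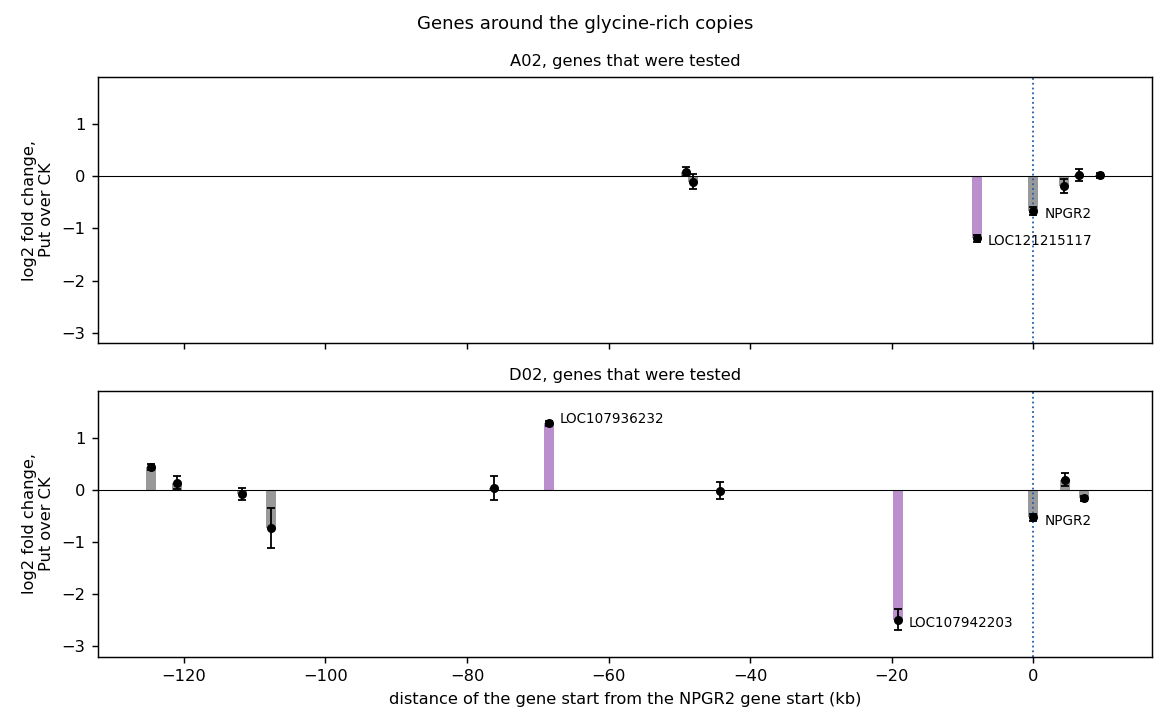
Log2 fold change of Put over CK (bars and points, ± SE) of the tested genes around the glycine-rich copies on A02 (top) and D02 (bottom), by distance of the gene start from that of NPGR2 in kb, with glycine-rich cell wall structural protein genes in purple. The gene just before NPGR2 is lower in Put on both chromosomes, LOC121215117 at −1.19 and LOC107942203 at −2.49, and LOC107936232 at 1.27 stands farther away.

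The response of the genes next to the members was not used to choose them. Of the 40 genes that flank the 10 members, 2 on each side, 20 were tested, 2 rose and 4 fell (30.0% called, edgeR quasi-likelihood test, beside 36.6% of all tested genes), and their median log2 fold change was −0.11, beside 0.00 over all genes. LOC107942203 was the only flanking gene past adjusted p 0.05 whose log2 fold change was 1 or more in size. Beside TBL39 the gene for the signalling peptide TAXIMIN 1 rose on both subgenomes, LOC107896876 on A10 by 0.42 and LOC107914496 on D10 by 0.69 on the log2 scale, while the TBL39 copies themselves went apart.

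Other A/D pairs of the same families were counted in the same way. Over the 5 families, members left out, 40 A/D pairs by gene order had both copies tested and both were called in 15, of which 8 were higher in both copies, 6 lower in both and 1 opposite. Over all pairs by gene order, 3559 of 3717 with both copies called had the same direction, so the count in the families is near that in general. That opposite pair was glycine-rich, LOC107913988 at −0.25 and LOC107924096 at 0.17, so its size was far below that of the members.

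All 4 other tested DCR genes, which were also all tested genes of the BAHD list, rose, where 18.4% of all tested genes were called higher. That list took only genes described as BAHD acyltransferase or DEFECTIVE IN CUTICULAR RIDGES, so BAHD enzymes under other names would be missing from it. The A04 and D04 copies LOC107930148 and LOC107939369 rose by 1.70 (SE 0.15, adjusted p = 2.01e-14) and 0.78 (SE 0.09, adjusted p = 8.18e-11) on the log2 scale. The A08 and D08 copies LOC107908036 and LOC107917823, which were the most abundant DCR genes, had 255 ± 5.50 and 329 ± 16.6 CPM in Put, against 205 ± 2.36 and 199 ± 1.68 CPM in CK, and rose by 0.31 and 0.72. LOC121223601, the D copy of the member pair, was thus the single tested DCR gene that was lower in Put.

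Of 17 other tested sugar transport genes 10 rose and 2 fell (70.6% called, beside 36.6% of all tested genes). Their median log2 fold change was 0.18. Sugar transport protein 5 on D05, LOC107905118, rose most (1.03, SE 0.08, adjusted p = 1.63e-16), and sugar carrier C-like on D06, LOC107900618, fell most (−1.29, SE 0.43, adjusted p = 0.0137) at 0.402 ± 0.0917 CPM in Put and 0.998 ± 0.269 CPM in CK. The other sugar carrier C pair, LOC107938226 on A05 and LOC107924199 on D05, rose by 0.13 and 0.18, and with 135 ± 3.77 and 167 ± 0.624 CPM in Put, against 123 ± 3.72 and 148 ± 2.94 CPM in CK, both of its copies were high.

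Of 52 other tested trichome birefringence genes 10 rose and 7 fell (32.7% called, near the 36.6% of all tested genes). The median was 0.03. ESKIMO 1-like on D04, LOC121216361, rose most (2.90, SE 0.21, adjusted p = 7.58e-17). TBL38 on A10, LOC107925238, fell most (−3.12, SE 0.27, adjusted p = 3.06e-14), and its D10 copy LOC107886680 fell with it (−2.95, SE 0.47, adjusted p = 7.93e-07). Of 16 other tested patatin genes 3 rose and 3 fell (37.5% called, also near that share), with a median of 0.04. Patatin-like 3 on A02, LOC121209634, rose most (1.34, SE 0.28, adjusted p = 1.2e-04), patatin-like 6 on D10, LOC121222538, fell most (−0.82, SE 0.12, adjusted p = 6.71e-08), and its A10 copy LOC107944626 fell by 0.73.

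The glycine-rich list had 48 other tested genes, of which 7 rose and 16 fell (47.9% called, beside 36.6% of all tested genes). The median was −0.10. Glycine-rich protein 5-like on A05, LOC107960739, rose most, but had only 6 counts over the 3 CK samples, against 112 counts over the 3 Put samples, a ratio of 20.8 with an exact 95% counting interval of 9.28 to 58.0. LOC107942203, described above, fell most. In this list the libraries were not alike: 32 of the 48 genes (66.7%) were highest among Put samples in Put replicate 1 and 36 (75.0%) highest among CK samples in CK replicate 3, compared with 33.9% and 34.2% of all tested genes. Both glycine-rich members followed this order, with their highest Put and CK values in the same libraries. Without single replicates the log2 fold change ranged between 1.20 and 1.41 for LOC107936232 and between −1.29 and −1.07 for LOC121215117.

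**Figure D5:**
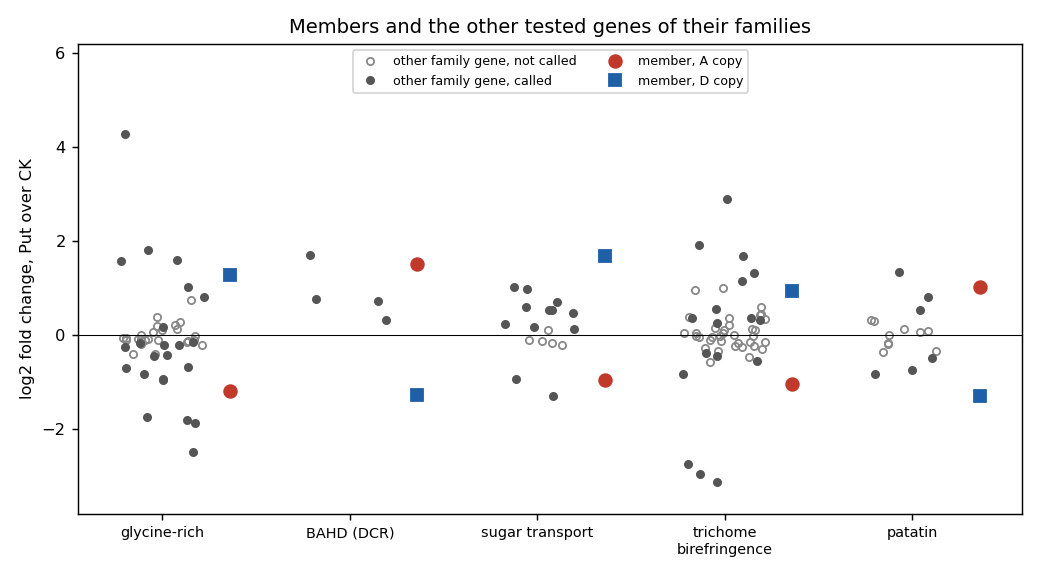
Log2 fold change of Put over CK of the A copy (red circle) and D copy (blue square) of each member pair beside the other tested genes of the same family, filled where adjusted p was under 0.05 and open otherwise. All 4 other DCR genes lie above 0, and in the sugar transport family 10 of 17 are called higher and 2 lower. The glycine-rich family leans the other way, with 7 called higher and 16 lower. The trichome birefringence family (10 higher, 7 lower) and the patatin family (3 and 3) are more even.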

How the data were processed

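The authors extracted total RNA from the cultured ovules, purified poly(A) RNA and sequenced it. Their notes name HISAT2 2.0.5, and the methods the Gossypium_hirsutum_v2.1 genome; the counting program, and whether counting used strand, are not given in the sources used here. The authors deposited raw counts per gene and FPKM. The deposited FPKM were used for levels, shares and limma. Their scaling followed size factors: the library size they imply, divided by its DESeq2 size factor, was 18369466 in every sample. Samples were grouped by the treatment label. With edgeR 4.0.16 in R 4.3.3, counts were filtered with filterByExpr, scaled by TMM and fitted with the quasi-likelihood model, Put over CK, on the whole table. CPM use TMM library sizes. The SE of a log2 fold change was derived from this fit, as its absolute value over the square root of the F statistic. DESeq2 1.42.0, limma 3.58.1 on log2 FPKM (pseudocount 1 or 0.1, genes averaging 0.5 FPKM or more), other filters and scalings, the replicate block and single replicates left out were the alternatives. The fit was tested on simulated data. Over all tested genes, same-numbered Put and CK samples did not deviate together (r between −0.01 and 0.00). This cannot exclude a pairing that touches few genes, and the main fit did not pair them. Samples of one condition differed by 1.73 to 1.87 times counting noise and were kept apart.

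The members and gene lists were chosen with earlier results of these data known. Families and markers were taken by gene description. Besides the members, the text names the most raised and most lowered called gene of each family, called flanking genes whose log2 fold change was 1 or more in size, the 3 most divergent other pairs and the nearest pair to each member pair. Other genes were named as partners or neighbours of these, after their values were seen. Of the listed genes, 99451 matched the RefSeq gene table of the same build. No sequence was used here, so proteins and promoters of the copies were not analysed here.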

Additional observations from a re-analysis of the deposited data

How the results depend on the processing

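All 10 members kept their direction and stayed past adjusted p 0.05, and all 5 pairs stayed opposite, under each alternative run: DESeq2, DESeq2 size factors, library size alone, both other count filters, limma on FPKM with either pseudocount, the replicate block and each replicate left out. The members were picked from this contrast and every run reused the same samples, so this adds no independent support. Of 140 alternative values of the members' log2 fold changes 0 were reversed. For each member the range over the 6 fits with a replicate left out served as the replicate spread. Only the 8 other alternatives per member could thus fall outside it. The values that did so numbered 7, all with limma on log2(FPKM + 1), where the faint copies shrank most (LOC121223601 to −0.60 and LOC107924896 to −0.47). Pairs by description with opposite calls numbered 115, 83 with DESeq2, 128 without TMM, 109 with the replicate block and 86 to 100 with single replicates left out. Where a log2 fold change of 1 or more in size was asked as well, 6 pairs and 2963 genes were called. Genes changed numbered 18936, 18661 with the replicate block and 16839 to 17055 with single replicates left out. They numbered 16132 with DESeq2, and 16358 and 16216 with limma at pseudocounts 1 and 0.1. Without TMM there were 19231, and without the filter on low counts 19377. By counts in place of FPKM, the glycine-rich A copy held 19.4% in Put and 57.2% in CK. The rule by gene order was added after seeing the data. Pairs by protein identity, on homoeologous or on any chromosomes, were not run. With 14 to 63 counts per sample, 4 of the 5 copies lower in Put have a precision set mainly by counting.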
